A study of Drosophila melanogaster with 14 samples.

Results

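Chromatin of most cells is anchored to the nuclear lamina (NL), a meshwork of lamins under the inner nuclear membrane, through long stretches of DNA called lamina-associated domains (LADs). LADs usually hold few genes, most of them weakly expressed, and they are separated by inter-LADs with more active genes. Spermatogonia (SpG) are the mitotically dividing germline cells of the testis, and spermatocytes (SpCs) are the growing cells that follow them, enter meiotic prophase and switch on many testis-specific genes. The values below describe how the LADs of the 2 stages are laid out along the chromosome arms of *Drosophila melanogaster*, as 18717 LADs on the arms 2L, 2R, 3L, 3R, X and 4, of 20818 LADs in all. Of these, 7676 of 8698 belong to SpCs and 11041 of 12120 to SpG, and the remainder lie on scaffolds outside the arms.

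LADs were mapped by Lam-DamID, in which a fusion of the methyltransferase Dam with Lam Dm0, the B-type lamin of flies, marks DNA close to the NL and Dam alone gives the background. For SpCs, *pUAST-attB-LT3-Dam-Lam* or *pUAST-attB-LT3-Dam* was driven by *bam-Gal4-VP16* in testes of larvae at the third instar. This driver works from late SpG onwards and most strongly in early to mid primary SpCs. For SpG, *pUAST-attB-hsp70-loxP-stop-loxP-Dam*, with its Dam-Lam counterpart beside it, was switched on by *nos-Cre* in adult testes homozygous for *bam*Δ86, a mutation that blocks the step to SpCs. All constructs were integrated at the same *attP40* site on chromosome 2, about 200 testes were pooled per sample, and there were 2 biological replicates of each construct at each stage (8 libraries). Somatic cells and germline cells of other stages were present in both kinds of testes, although Dam was expressed under germline control. Construct, driver, *bam* genotype and age all changed together with the stage, so that their parts in any difference cannot be told apart. The authors merged the replicates and called 1 LAD list per stage. No LAD value below therefore has a replicate error, no test was made, and the reads behind single LADs were not analysed here.

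Each arm was divided into windows of 500 kb from coordinate 0 to the end of its last LAD (dm3/R5 coordinates throughout), which gave 243 windows, 6 of them incomplete last windows. LAD coverage is the percentage of a window that lies in LADs, and the change is coverage in SpCs minus coverage in SpG, in percentage points. A window was counted as lower or higher when the change was at least 5 points, and as staying otherwise. Coverage was lower in SpCs in 146 windows (60.1% of all windows), higher in 22 (9.05%) and stayed within 5 points in 75. The change ranged from -61.4 to 21.2 points, with a median of -6.70 and quartiles of -14.4 and -0.78. When 5 points were counted from this median, 79 windows were lower and 69 higher. The median has equal numbers of windows on either side, so that these counts cannot show whether all windows shifted alike.

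**Figure D1:**
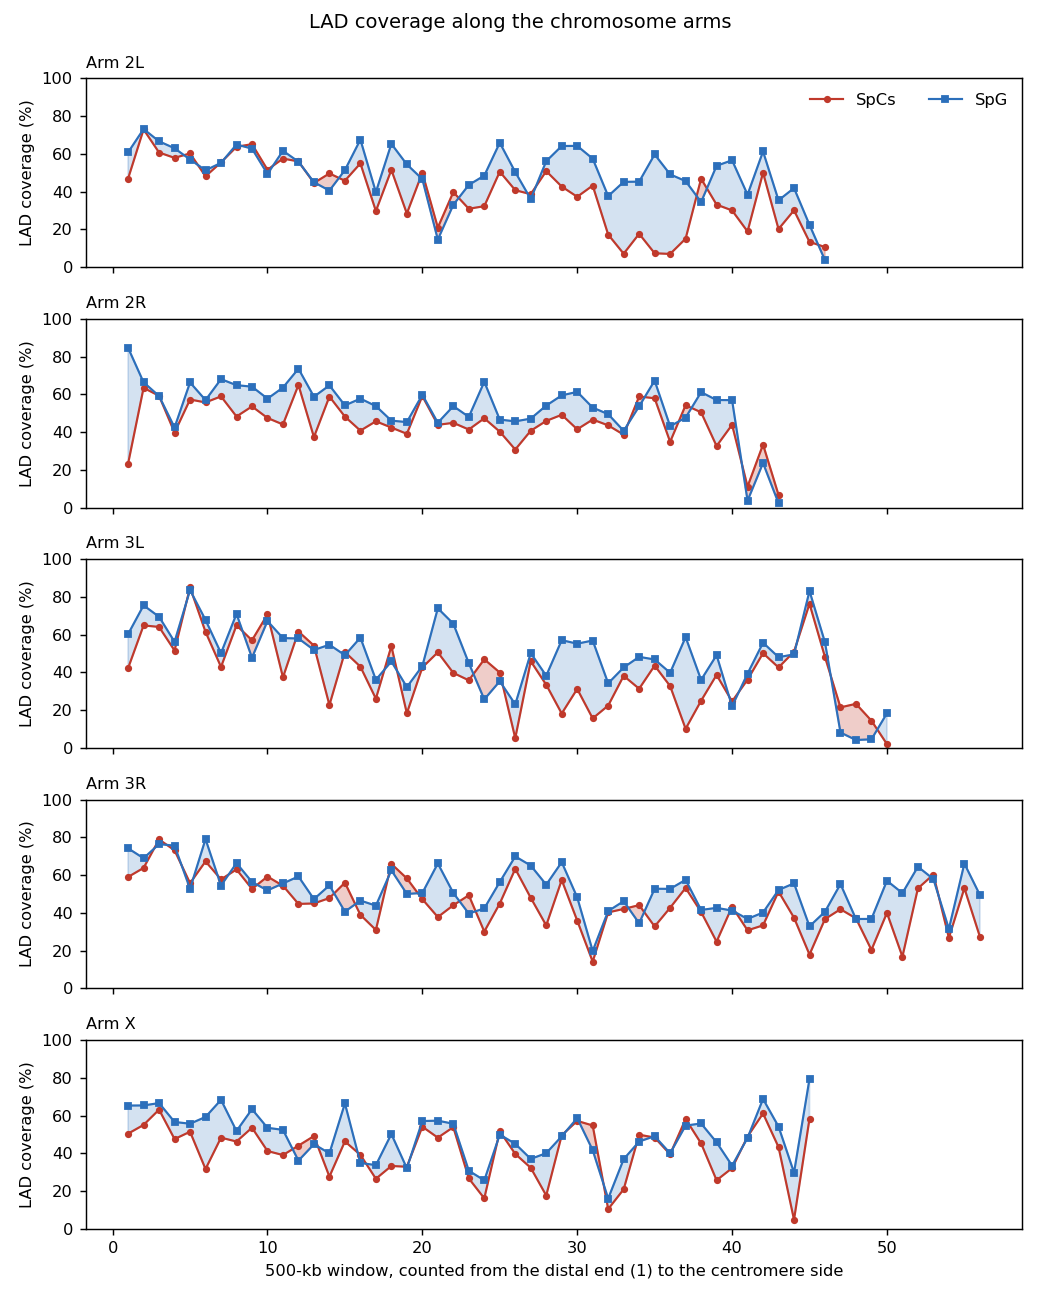
LAD coverage (%) in SpCs (red circles) and SpG (blue squares) for each 500-kb window of the 5 large arms, numbered from the distal end (window 1) towards the centromere. Blue shading marks lower coverage and red shading higher coverage in SpCs. The deepest gap is at the distal end of 2R (window 1, 23.2% in SpCs and 84.6% in SpG). On 2L, the deepest gap is in the centromere-side part (7.32% in SpCs and 59.7% in SpG), while coverage at both stages runs close together over windows 5 to 13 of that arm.

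Lower windows were in the majority on each of the large arms. They numbered 29 of 46 on 2L, 30 of 43 on 2R, 29 of 50 on 3L, 31 of 56 on 3R and 25 of 45 on X. Higher windows numbered 5 on 2L, 4 on 2R, 6 on 3L, 5 on 3R and 2 on X. On the small chromosome 4, 2 of 3 windows were lower and none was higher. Windows that were mostly LAD were fewer in SpCs, where 79 windows had a coverage of 50% or more against 133 windows in SpG. Windows with less than 20% coverage numbered 26 in SpCs and 10 in SpG. At the upper end, 6 windows had 70% or more in SpCs and 13 in SpG, and 5 windows reached this level at both stages.

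The order of the windows was nevertheless similar at both stages. Across the 243 windows, coverage in SpCs and in SpG had a Pearson correlation of 0.70 and a Spearman correlation of 0.68, which is a description of windows and not of replicates. The windows share the libraries of their stage, and unmappable sequence lowers coverage at both stages. Within arms, the Pearson correlation was lowest on 2L, at 0.62, and highest on X, at 0.77. Changes of neighbouring windows went together on 2L, with a correlation of 0.57 over 45 pairs, and hardly on the other large arms, where it lay between 0.09 and 0.19.

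**Figure D2:**
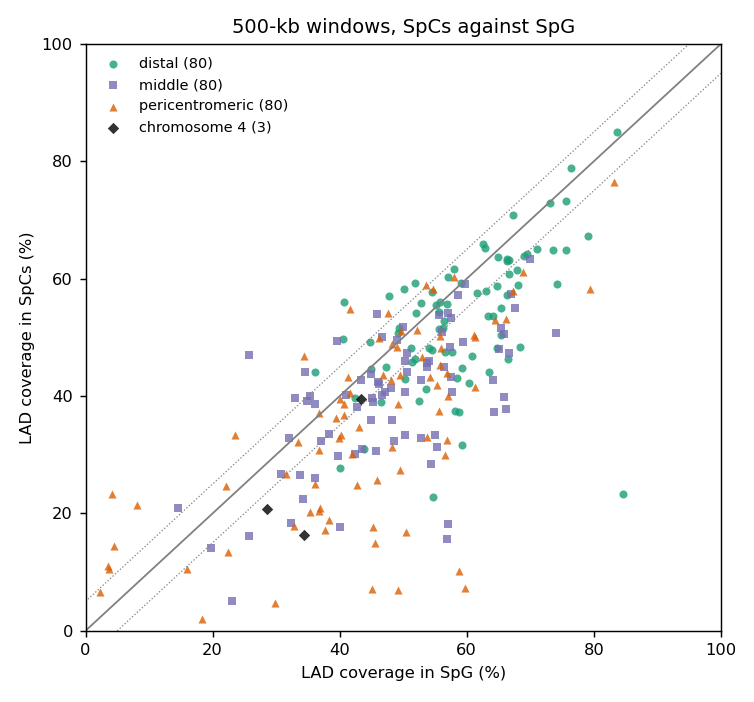
LAD coverage (%) of each 500-kb window in SpCs (vertical axis) against SpG (horizontal axis), with marks for the distal, middle and pericentromeric parts of the large arms and for chromosome 4. The solid line marks equal coverage and the dotted lines a change of 5 percentage points in either direction. Of the 243 windows, 146 lie on or below the lower dotted line and 22 on or above the upper one.

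Equal coverage did not mean that the same DNA was in LADs. In the 75 staying windows, 12.6% of the DNA was LAD in SpG and not in SpCs, and 12.1% was LAD in SpCs and not in SpG. The 2 amounts balanced, and in the median staying window 24.2% of the DNA differed between the stages. In the 146 lower windows, DNA that was LAD in SpG alone made up 21.0% and DNA that was LAD in SpCs alone 6.25%. In the 22 higher windows, these shares were 6.43% and 16.6%. Lower, staying and higher windows thus differed in the balance of both parts, while the median share that differed was close, at 25.8%, 24.2% and 24.1%.

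The window with the lowest value was the incomplete last window of 2R, at the tip of the arm. Its 144.6 kb from 21.0 to 21.1 Mb had 23.2% coverage in SpCs and 84.6% in SpG, a change of -61.4 points. In SpG it was overlapped by 6 LADs, 4 of which had no LAD of SpCs over any part of them. Among those were neighbouring LADs at chr2R:21089701-21110100 and chr2R:21110401-21140700, of 20.4 and 30.3 kb. The window holds less than the full 500 kb, so that its change rests on few LADs.

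On 2L, the window from 17.0 to 17.5 Mb had 7.32% coverage in SpCs and 59.7% in SpG, a change of -52.4 points and the lowest among complete windows. It was overlapped by 6 LADs in SpCs and by 59 LADs in SpG, of which 52 had no counterpart in SpCs. The next window towards the centromere, from 17.5 to 18 Mb, had 6.96% coverage in SpCs and 49.1% in SpG, with 5 LADs in SpCs and 51 LADs in SpG. Here 48 of the SpG LADs had no counterpart. Few LADs of any length were left in this 1000-kb stretch in SpCs.

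Both windows lie in a run of 10 neighbouring lower windows on 2L, from 13.5 to 18.5 Mb. Over these 5.0 Mb, coverage was 24.5% in SpCs and 52.5% in SpG, a change of -27.9 points. DNA that was LAD in SpG alone amounted to 1.69 Mb, against 0.290 Mb that was LAD in SpCs alone. The change was between -27.6 and -28.9 points when LADs shorter than 900 bp were removed or when LADs up to 300 bp or 1200 bp apart were joined. The run ended at the window from 18.5 to 19.0 Mb, which had the highest change on 2L, with 46.8% in SpCs and 34.5% in SpG (12.4 points). Beyond it, 7 further lower windows followed from 19.0 to 22.5 Mb, with 27.9% coverage in SpCs and 44.2% in SpG. By contrast, the longest run of staying windows was in the distal part of the same arm, where 9 windows from 2.0 to 6.5 Mb had 55.8% in SpCs and 55.9% in SpG.

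On 3L, the lowest change was at 18 to 18.5 Mb, with 10.1% coverage in SpCs and 58.7% in SpG (-48.6 points). The longest SpG LAD there, chr3L:18317101-18373800 with 56.7 kb, had no LAD of SpCs over it. It was the longest of the 11 SpG LADs of 20 kb or longer without any overlap in SpCs. At 15.0 to 15.5 Mb, coverage was 15.7% in SpCs and 56.9% in SpG (-41.3 points), with 10 LADs in SpCs and 43 in SpG. This window belongs to a run of 4 lower windows from 14 to 16 Mb, with 21.9% in SpCs and 50.9% in SpG. The lowest changes on the other arms were -33.7 points on 3R, from 2.5 to 3.0 Mb (16.8% in SpCs and 50.5% in SpG), and -27.6 points on X, from 2.5 to 3.0 Mb (31.7% in SpCs and 59.3% in SpG). The longest runs of lower windows had 11 windows each and were both on 2R, from 5.5 to 11 Mb and from 13 to 18.5 Mb. There the change was smaller, at -10.3 points (42.9% in SpCs and 53.2% in SpG) and -12.1 points (49.8% in SpCs and 61.9% in SpG).

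Most higher windows stood alone. They formed 18 runs, of which 15 were single windows, and the longest run had 3 windows. Lower windows formed 55 runs, of which 7 had 5 windows or more. The rarer kind of window forms shorter runs even when placed at random, and there were 22 higher and 146 lower windows. Whether either kind was more scattered or more clustered than random placement was not tested. The highest change was on 3L from 11.5 to 12 Mb, with 47.0% coverage in SpCs and 25.7% in SpG (21.2 points). The number of LADs was close there, with 31 in SpCs and 35 in SpG, but their median length was 5.1 kb in SpCs and 1.80 kb in SpG. On 3R from 20.5 to 21.0 Mb, coverage was 56.0% in SpCs and 40.7% in SpG (15.4 points). This window was overlapped by fewer and longer LADs in SpCs, 21 with a median of 9.30 kb, than in SpG, 43 with a median of 3.6 kb. The longest of them in SpCs was chr3R:20498701-20556000, with 57.3 kb. On X, the highest change was at 15.0 to 15.5 Mb, with 54.8% in SpCs and 41.7% in SpG (13.1 points), and on 2R at 0.5 to 1.0 Mb, with 33.4% in SpCs and 23.6% in SpG (9.78 points).

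The run of 3 higher windows was at the centromere side of 3L, from 23 to 24.5 Mb, with 19.8% coverage in SpCs and 5.64% in SpG (14.1 points). Its windows from 23.5 to 24.0 Mb and from 23 to 23.5 Mb (changes of 19.2 and 13.3 points) were overlapped by 49 and 44 LADs in SpCs, with medians of 1.2 and 0.6 kb. In SpG they were overlapped by 16 and 25 LADs. Of the SpCs LADs, 35 of 49 and 34 of 44 overlapped no LAD of SpG. Over the whole run there were 137 LADs in SpCs and 63 in SpG, and most of them had 1.2 kb or less, 81 in SpCs and 45 in SpG. These short LADs held 35.3 of 296.6 kb in SpCs and 27.3 of 84.6 kb in SpG, so that most of the added coverage lay in longer LADs, of up to 15.6 kb in SpCs and 5.7 kb in SpG. The change was 13.2 points without LADs shorter than 900 bp and 16.3 points when LADs up to 1200 bp apart were joined.

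To compare distal with pericentromeric chromatin, the arms were cut into 3 equal parts from the telomere to the centromere side. Coverage was highest in the distal parts at both stages, and it was lower in SpCs in all 3 parts. Pooled over the 5 large arms, distal parts had 53.3% in SpCs and 59.3% in SpG, a change of -6.01 points. The middle parts had 39.3% in SpCs and 48.0% in SpG (-8.73 points), and the pericentromeric parts 34.8% in SpCs and 44.2% in SpG (-9.43 points). DNA that was LAD in SpG alone made up 15.1% of the distal, 18.6% of the middle and 17.7% of the pericentromeric parts, and DNA that was LAD in SpCs alone 9.09%, 9.83% and 8.25%. Lower windows made up 42 of 80 distal, 51 of 80 middle and 51 of 80 pericentromeric windows, and higher windows 6, 6 and 10 of 80.

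The difference between distal and pericentromeric parts was not common to all arms. On 2L, the change was -1.91 points in the distal part (55.8% in SpCs and 57.7% in SpG) and -20.1 points in the pericentromeric part (22.6% in SpCs and 42.6% in SpG). In its pericentromeric part, 38.9% of the LADs of SpG by length remained LAD in SpCs, and 13 of 15 windows were lower. On 3R, the changes went the same way, with -2.15 points distally (56.8% in SpCs and 59.0% in SpG) and -10.4 points pericentromerically (36.5% in SpCs and 46.8% in SpG). On 2R, the order was the opposite, with -10.1 points distally (52.5% in SpCs and 62.6% in SpG) and -5.19 points pericentromerically (39.3% in SpCs and 44.5% in SpG). The same order was found on X, with 46.3% in SpCs and 56.3% in SpG distally and 39.9% in SpCs and 46.1% in SpG pericentromerically. On 3L, the changes were -7.10 points distally and -5.04 points pericentromerically. Without 2L, the pooled change was -6.88 points in the pericentromeric parts and -6.99 points in the distal parts, so that the pooled difference rested on 2L. Chromosome 4 had 12.6% in SpCs and 27.8% in SpG distally, 49.3% in SpCs and 51.5% in SpG in the middle, and 19.8% in SpCs and 27.6% in SpG pericentromerically, over parts of 0.423 Mb.

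**Figure D3:**
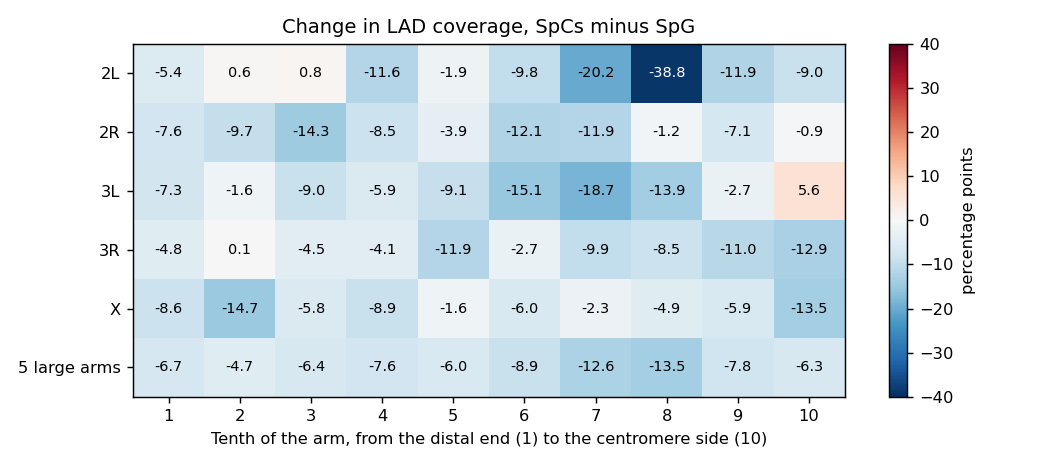
Change in LAD coverage (SpCs minus SpG, percentage points, colour scale and printed values) in 10 equal parts of each large arm, from the distal end (1) to the centromere side (10), and pooled over the 5 arms. The lowest value is -38.8 in part 8 of 2L, and part 10 of 3L is 5.6.

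In 10 equal parts per arm, the pooled change was lowest in parts 7 and 8, at -12.6 and -13.5 points. Without 2L, it was -10.8 points in part 7, still the lowest of the 10 parts, and -7.45 points in part 8, so that the value of part 8 rested on 2L. Next to these, the pooled change was -7.82 points in part 9 and -6.31 points in part 10, at the centromere side. Not all arms had this order, since the lowest part was part 10 on 3R (-12.9 points) and part 2 on X (-14.7 points), where part 10 had -13.5 points. In part 8 of 2L, coverage was 10.3% in SpCs and 49.1% in SpG, and 15.5% of the LADs of SpG by length were kept in SpCs. Parts 7 of 2L and 3L had changes of -20.2 and -18.7 points. Pericentromeric windows also held most of the stretches without any LAD. Of stretches of 50 kb or more that were LAD-free at both stages, 56 (4351.8 kb) lay in pericentromeric, 31 (2196.6 kb) in middle and 13 (770.1 kb) in distal parts. Bins without reads cannot be told apart from inter-LADs in these lists. With these stretches taken out of the length, the pericentromeric change was -10.6 points.

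The ends of the arms did not behave like the parts that contain them. In the outermost 0.5 Mb at the distal end, coverage was lower in SpCs on each of the 5 large arms. It was 46.9% in SpCs and 60.8% in SpG on 2L, 49.8% in SpCs and 72.1% in SpG on 2R, and 42.3% in SpCs and 60.3% in SpG on 3L. It was 54.3% in SpCs and 70.2% in SpG on 3R, and 50.4% in SpCs and 65.3% in SpG on X. The changes lay between -22.3 and -13.9 points, with a pooled change of -17.0 points (48.7% in SpCs and 65.8% in SpG), beside 60.1% of all windows that were lower by at least 5 points. DNA gained by LADs in SpCs made up 2.65% of these tips and DNA lost by them 19.7%. In the next 0.5 Mb, the pooled change was -4.41 points (66.4% in SpCs and 70.8% in SpG), with changes of -0.18 points on 2L, -0.42 on 2R and -0.48 on 3R and of -10.6 on 3L and -10.3 on X. Farther in, 2L was lower again, with 60.7% in SpCs and 66.7% in SpG from 1.0 to 1.5 Mb (-5.94 points) and 57.9% in SpCs and 63.0% in SpG from 1.5 to 2.0 Mb (-5.08 points).

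At the centromere side, the arms differed in direction. Over the innermost 1.5 Mb, coverage was higher in SpCs on 3L (19.8% in SpCs and 5.70% in SpG) and 2R (17.0% in SpCs and 9.82% in SpG). It was lower on X (33.5% in SpCs and 53.0% in SpG), 3R (35.8% in SpCs and 49.1% in SpG) and 2L (18.0% in SpCs and 22.6% in SpG). The arms with higher values in SpCs had the lowest coverage in SpG. Next to the centromere of 2L, in the innermost 0.5 Mb, coverage was 10.5% in SpCs and 3.6% in SpG.

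LADs were sorted into 6 length classes, which hold only multiples of the 300-bp bin. The number of LADs of 20.1 kb and longer was nearly equal, with 464 in SpCs and 470 in SpG, and so was their summed length, with 13.96 Mb in SpCs and 13.90 Mb in SpG. The shorter classes were smaller in SpCs. LADs of 10.2 to 19.8 kb numbered 1188 in SpCs and 1287 in SpG, those of 5.1 to 9.9 kb 1661 in SpCs and 2107 in SpG, and those of 1.5 to 4.8 kb 2487 in SpCs and 4199 in SpG. The class of 0.6 to 1.2 kb held 940 LADs in SpCs and 1970 in SpG, which is the lowest ratio, 0.48. LADs of a single bin numbered 936 in SpCs and 1008 in SpG. The summed length of a class differed most for LADs of 1.5 to 4.8 kb (-4.60 Mb) and of 5.1 to 9.9 kb (-3.10 Mb). These are differences between class totals, and the DNA that was LAD in SpG alone came from longer LADs too. It amounted to 5.85 Mb in SpG LADs of 1.5 to 4.8 kb, 5.58 Mb in those of 5.1 to 9.9 kb, 5.08 Mb in those of 10.2 to 19.8 kb and 2.72 Mb in those of 20.1 kb and longer. In the totals, LADs of 20.1 kb and longer held 27.4% of the LAD length in SpCs and 22.9% in SpG, a change of 4.50 points.

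The X chromosome differed from the autosomes in this respect. On the 4 large autosomal arms, LADs of 20.1 kb and longer numbered 429 in SpCs and 415 in SpG and held 31.7% of the length in SpCs and 25.3% in SpG. On X they numbered 28 in SpCs and 50 in SpG and held 7.71% of the length in SpCs and 12.1% in SpG. Conversely, LADs of 1.5 to 4.8 kb numbered 1573 in SpCs and 3126 in SpG on the autosomal arms, a ratio of 0.50, but 912 in SpCs and 1047 in SpG on X, a ratio of 0.87. For LADs of 0.6 to 1.2 kb, the ratios were 0.36 on the autosomal arms and 0.72 on X. The median LAD was 5.1 kb in SpCs and 3.6 kb in SpG on the autosomal arms, against 2.40 kb in SpCs and 2.10 kb in SpG on X. LADs of X were also more numerous at both stages. The median window had 55 LADs in SpCs and 65 in SpG on X, against 26 in SpCs and 43 in SpG on the autosomal arms. Male germline cells have a single X, and a bin that lacks Dam reads can cut a LAD. Whether read depth played a part in the shorter LADs of X was not tested. The direction of the change in long LADs on the autosomal arms was not uniform either, with 87 LADs in SpCs and 75 in SpG on 2L and 139 in SpCs and 122 in SpG on 3R, but 105 in SpCs and 111 in SpG on 2R and 98 in SpCs and 107 in SpG on 3L.

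**Figure D4:**
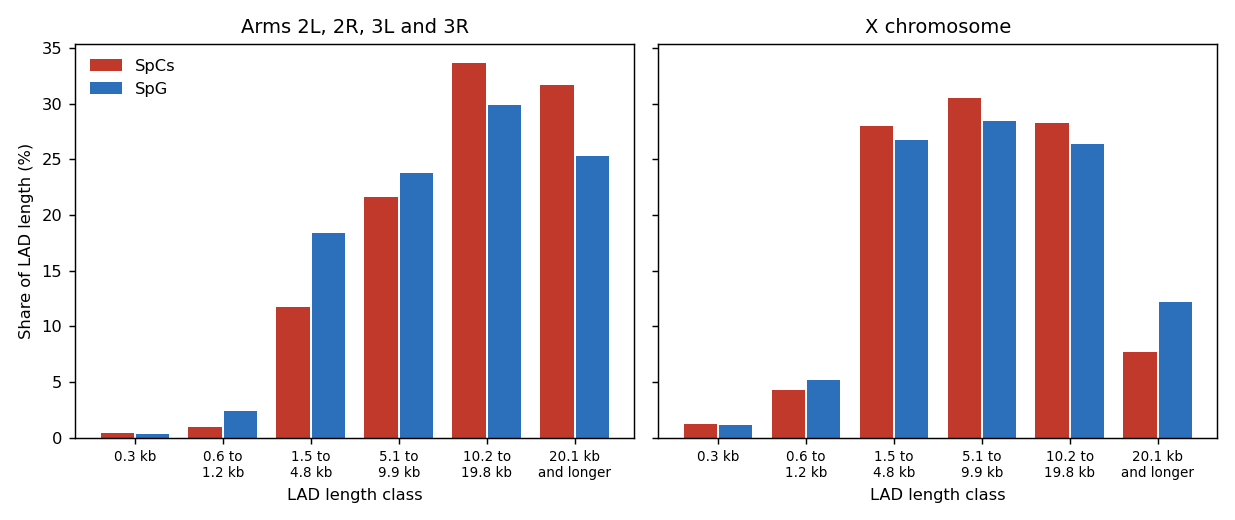
Share of LAD length (%) in 6 length classes in SpCs (red) and SpG (blue), for the arms 2L, 2R, 3L and 3R together and for X. LADs of 20.1 kb and longer hold 31.7% in SpCs and 25.3% in SpG on the autosomal arms, and 7.71% in SpCs and 12.1% in SpG on X.

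Long LADs were shared more often than short ones. Of the SpG LADs of 20.1 kb and longer, 11 of 470 (2.34%) had no LAD of SpCs over any part of them. This share was 10.2% for 10.2 to 19.8 kb, 23.3% for 5.1 to 9.9 kb, 41.3% for 1.5 to 4.8 kb, 57.9% for 0.6 to 1.2 kb and 72.3% for a single bin. In the other direction, each of the 464 SpCs LADs of 20.1 kb and longer overlapped a LAD of SpG, while 39.6% of those of a single bin did not. A longer LAD has more bins that can be hit, so that this order holds in part by construction. The share of the length is free of that. It was 80.4% of the length of SpG LADs of 20.1 kb and longer that was also LAD in SpCs, against 51.4% for 1.5 to 4.8 kb and 27.7% for a single bin.

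Overlap did not mean equal borders. Of the SpG LADs of 20.1 kb and longer, 53 of 470 lay completely within LADs of SpCs, 406 lay partly in them, and 67.2% met 2 or more LADs of SpCs. Among the SpCs LADs of that class, 76.3% met 2 or more LADs of SpG. Long LADs were thus split at both stages, at positions that differed. The longest LAD of SpCs, chr3L:2113801-2218500 with 104.7 kb, was 92.0% LAD in SpG but in 5 pieces. The longest LAD of SpG, chr3R:13888801-13978500 with 89.7 kb, was 78.6% LAD in SpCs in 4 pieces. The 10 longest LADs of SpCs were covered by 72.0 to 98.6% in SpG, and the 10 longest of SpG by 74.9 to 100% in SpCs. In each list, 6 of the 10 lay in distal parts of the arms. An example with nearly equal borders is chr2L:588601-658800 in SpCs and chr2L:589801-654300 in SpG, a distal LAD of 70.2 kb in SpCs and 64.5 kb in SpG.

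By position along the arms, LADs of 20.1 kb and longer numbered 207 in SpCs and 218 in SpG in the distal parts, 140 in SpCs and 117 in SpG in the middle parts and 110 in SpCs and 130 in SpG in the pericentromeric parts. Middle parts had more of them in SpCs, although their coverage was lower in SpCs. LADs of 1.5 to 4.8 kb were fewer in SpCs in each part, with 870 in SpCs and 1356 in SpG distally, 848 in SpCs and 1533 in SpG in the middle and 767 in SpCs and 1284 in SpG pericentromerically.

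Genes could be set beside the windows on 2L only, because the gene table used here covers this arm up to 16.5 Mb. It has 1981 genes in 33 complete windows, of which 18 were lower, 12 staying and 3 higher. The 2L windows with the lowest changes, from 17.0 to 17.5 Mb (-52.4 points) and from 17.5 to 18.0 Mb (-42.2 points), lie beyond this limit. The gene values of lower windows were therefore made without them. Lower windows had fewer genes, 104 per Mb, against 130 in staying and 175 in higher windows, and the 5 windows with changes of -20 points or below had 78.8 genes per Mb. Over the 33 windows, the number of genes had a correlation of 0.56 with the change, of -0.07 with coverage in SpCs and of -0.58 with coverage in SpG. These are descriptions of windows of 1 arm. Coverage enters both the change and its parts, so that a relation with SpG coverage carries over to the change. In SpG, then, gene-poor windows had the higher coverage, and in SpCs coverage on this part of 2L showed next to no relation with gene number.

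Genes of the class that the study calls SpC-specific, which start to be expressed in SpCs, made up 10.8% of the genes in lower windows (Wilson 95% interval 8.95% to 12.9%), 9.21% in staying windows (7.38% to 11.4%) and 6.49% in higher windows (4.09% to 10.1%). In the 5 windows with changes of -20 points or below they made up 32 of 197 genes, or 16.2% (11.7% to 22.0%), beside 9.59% of all genes in the 33 windows. Ubiquitously expressed genes made up 16.8% (12.2% to 22.6%) of the genes in these 5 windows and 29.4% of all. Neither share was common to the 5 windows. SpC-specific genes numbered 8 of 38, 11 of 32 and 9 of 43, but 1 of 34 and 3 of 50 in the remaining windows. The window with 3 of 50 had the lowest change (-38.1 points) and 17 ubiquitously expressed genes, against 0 to 8 in the others. With a limit of 10 points in place of 5, SpC-specific genes made up 10.3% of the genes in lower windows, beside 10.8%. The intervals cover counting error only, neighbouring genes are not independent, and the study chose these classes partly on the control RNA libraries of this series. Over the windows, the number of SpC-specific genes had a correlation of 0.02 with the change. Their share among the genes of a window had a correlation of -0.35 with the change, so that the relation depended on whether the number or the share was taken.

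RNA was taken from control testes of larvae at the third instar, which carried *bam-Gal4-VP16* alone, in 3 libraries with 6853903, 5651960 and 6013633 expected reads. RNA levels are given as TPM, which corrects for gene length and sums to the same total in each library. All 13 measured spermatocyte genes of a list of 14 were at 1 TPM or more in all 3 libraries, and their sum was 5493 to 6433 TPM. Of a list of 5 germline markers, 4 were measured, with a sum of 30.2 to 59.3 TPM. Of these, *vas*, *bam* and *zpg* were at 1 TPM or more in all 3 libraries, and *ovo* was at 0.10 to 0.23 TPM. The 6 genes of somatic cyst and hub cells, *tj*, *zfh1*, *eya*, *upd1*, *Fas3* and *hh*, summed to 37.3 to 46.1 TPM. The 4 fat body genes *Lsp1alpha*, *Lsp1beta*, *Lsp2* and *Fbp1* summed to 3630 to 5437 TPM, although these storage proteins and receptors are products of the fat body, so that transcripts of fat body genes were present in each library. The muscle genes measured summed to 2.60 to 3.82 TPM and the neuronal genes to 3.44 to 5.11 TPM. Most of the neuronal sum was *nSyb*, while *elav* was at 0.14 to 0.49 TPM. RNA of SpG was not analysed here, and in whole testes fewer cells of a type and less RNA per cell cannot be told apart.

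In 2L windows with 50% or more LAD coverage in SpCs, 72.1% ± 0.62 of 887 genes were at 1 TPM or more (SD, n = 3 libraries), with a median of 8.50 ± 0.949 TPM. In windows below 50%, the share was 78.1% ± 1.16 of 1094 genes and the median 16.2 ± 1.89 TPM. The share was lower in the LAD-rich windows in each of the 3 libraries. The SD is over libraries that measure the same genes, so that it does not cover the spread among windows. By kind of window, the share was 75.2% ± 1.13 in lower, 81.2% ± 1.34 in higher and 73.7% ± 0.851 in staying windows (SD, n = 3 libraries). In each of the 3 libraries, the share was higher in the 3 higher windows together than in either other kind. The single higher windows had means of 86.9%, 85.1% and 69.8%, and lower windows ranged from 56.2% to 88.7%. The change itself had a correlation of -0.01 with the share of genes at 1 TPM or more over the 33 windows. The part of fat body RNA in these values was not tested.

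**Figure D5:**
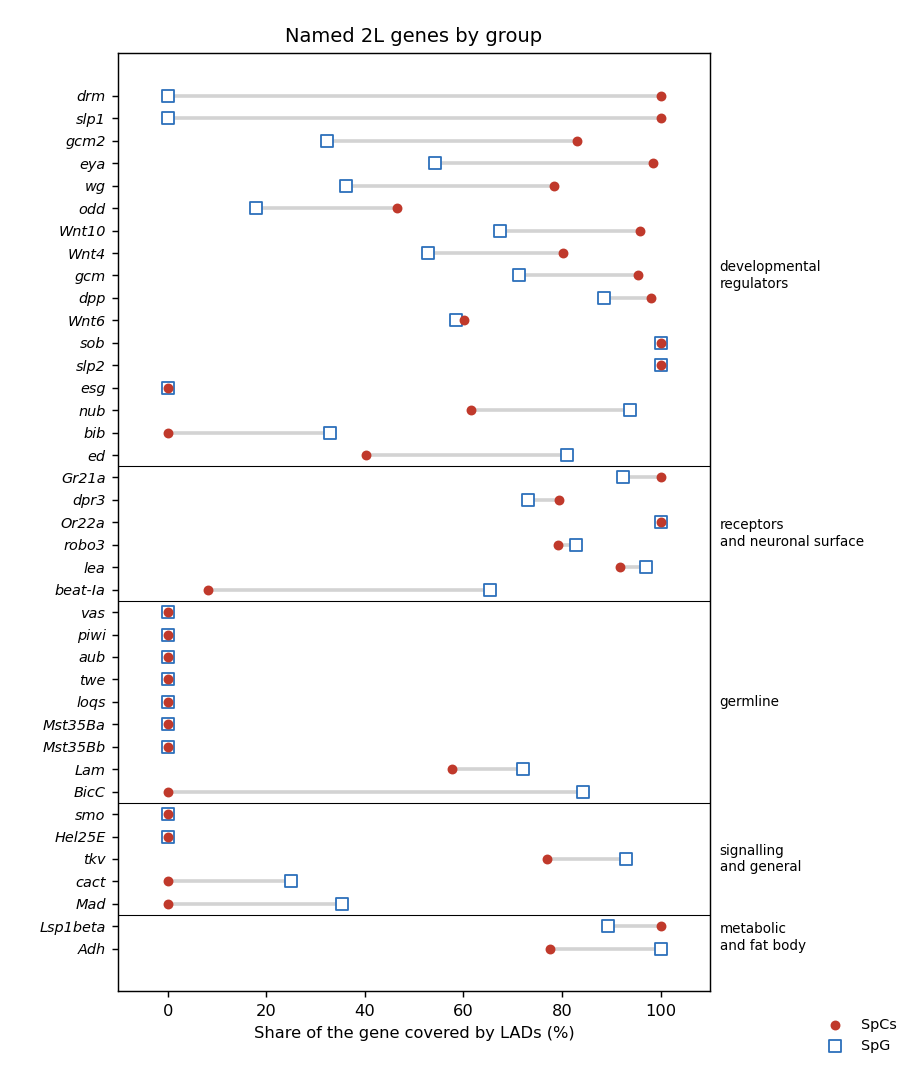
Share of each of 39 named 2L genes that lies in LADs (%) in SpCs (filled red circles) and SpG (open blue squares), in 5 groups. Among the developmental regulators, 9 of 17 lie at least 10 points to the right in SpCs and 3 to the left. Of the 9 genes of the germline list, 7 are at 0 at both stages, beside 46.7% of all genes of the table.

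Single genes were described by the share of the gene that lies in LADs. Of all 1998 genes of the table, 336 (16.8%) were covered by at least 10 points less in SpCs and 315 (15.8%) by at least 10 points more, in spite of the lower coverage of the windows. A group of 39 named genes of 2L was looked at one by one. The smallest of them span only a few bins, so that a shift of a LAD border by a few bins can take a gene completely into or out of a LAD.

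Regulators of embryonic and imaginal development act mainly in somatic cells, and the 17 genes of this group had mean levels of 0 to 22.2 TPM. Of these 17 genes, 9 (52.9%) were covered by at least 10 points more in SpCs and 3 by at least 10 points less, beside 15.8% and 16.8% of all genes of the table. Several of the 17 are neighbours and not independent. Fewer of them were near the limits of the scale, with 1 of 17 below 10% and 2 above 90% at both stages. Among all genes, these shares were 48.4% and 15.8%. The zinc finger gene *drm* and the forkhead gene *slp1* were covered by 100% in SpCs and 0% in SpG. In SpCs, *drm* lay in the LAD chr2L:3534001-3563700, and *slp1* lay together with its neighbour *slp2* in chr2L:3819601-3845700. In SpG, the LAD chr2L:3827401-3861900 covered *slp2* and began just behind *slp1*, so that the border of this LAD lay between the 2 related genes. *slp2* and *sob*, a neighbour of *drm* from the same gene family, were covered by 100% at both stages. *odd*, a further member of this family, was covered by 46.5% in SpCs and 18.0% in SpG.

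The genes for the Wnt ligands *wg*, *Wnt4* and *Wnt10* were covered by 78.4%, 80.3% and 95.8% in SpCs, against 36.2%, 52.7% and 67.3% in SpG, and *Wnt6* by 60.2% in SpCs and 58.6% in SpG. In SpCs, *wg* lay in a LAD of 9.9 kb, and in SpG in LADs of 1.2 and 2.1 kb. These 4 genes are neighbours, in a window whose coverage was lower in SpCs (45.8% in SpCs and 51.4% in SpG from 7.0 to 7.5 Mb). The glial regulators *gcm* and *gcm2* were covered by 95.4% and 83.0% in SpCs, against 71.3% and 32.3% in SpG. *eya*, which encodes a transcription cofactor of the eye and of somatic cyst cells, was covered by 98.5% in SpCs and 54.2% in SpG. It had 22.8, 25.8 and 17.9 TPM in the control libraries, and its RNA is part of the cyst cell list above. The POU domain gene *nub*, the channel gene *bib* and the cell adhesion gene *ed* went the other way, with 61.5%, 0% and 40.2% in SpCs, against 93.9%, 33.0% and 81.1% in SpG. The BMP ligand gene *dpp* was at 98.1% in SpCs and 88.6% in SpG, and the zinc finger gene *esg* at 0% at both stages.

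Of the 9 genes of the germline list, 7 (77.8%) were at 0% at both stages, beside 46.7% of all 1998 genes of the table. The list is not limited to genes of germline cells alone, since the study detected Lam Dm0 in somatic cells of the testis too. *vas*, *piwi*, *aub* and *loqs*, which encode proteins of germ cell formation or of small RNA pathways, the meiotic phosphatase gene *twe* and the protamine-like genes *Mst35Ba* and *Mst35Bb* were at 0% in SpCs and SpG. The protamine-like genes had means of 867 ± 93.3 and 1344 ± 134 TPM (SD, n = 3), but they are near-identical copies, so that reads may be split between them. *BicC*, an RNA-binding protein of oogenesis, was at 0% in SpCs and 84.3% in SpG, where it lay in the LAD chr2L:16043101-16050000, and it had 74.3 ± 4.38 TPM (SD, n = 3). *Lam*, the gene for Lam Dm0 itself, was covered by 57.7% in SpCs and 72.1% in SpG and had 84.5 ± 13.8 TPM (SD, n = 3). Of the 6 genes for receptors and neuronal surface proteins, *Or22a*, *Gr21a* and *lea* were above 90% at both stages, beside 15.8% of all genes of the table, and *robo3* and *dpr3* were at 79.1% and 79.4% in SpCs, against 82.8% and 73.0% in SpG. *beat-Ia*, an axon guidance gene next to *BicC*, was covered by 8.15% in SpCs and 65.4% in SpG and had 0.468 ± 0.156 TPM (SD, n = 3). Of these 2 neighbours, both with lower coverage in SpCs, only *BicC* was thus above 1 TPM.

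Among the genes of general signalling, *Mad* and *cact* were at 0% in SpCs, against 35.3% and 25.1% in SpG. *tkv* was at 76.9% in SpCs and 93.0% in SpG, and *smo* and the helicase gene *Hel25E* were at 0% at both stages. *Adh*, the alcohol dehydrogenase gene, was covered by 77.6% in SpCs and 100% in SpG. The fat body gene *Lsp1beta* was covered by 100% in SpCs and 89.4% in SpG, and its 1289, 1107 and 907 TPM stand beside the fat body RNA in these libraries.

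In the windows of the gene table with the lowest change, the 3 genes with the highest TPM were taken. From 16 to 16.5 Mb (7.08% in SpCs and 45.2% in SpG), these were *CG34168*, *CG31820* and *CG13245*, with 3844 ± 691, 2816 ± 356 and 2055 ± 231 TPM (SD, n = 3). Each of them was at 0% in SpCs and 100% in SpG. *CG34168* lay in a LAD of 3.00 kb in SpG, and *CG31820* and *CG13245* shared a LAD of 3.30 kb, chr2L:16003501-16006800. *BicC*, *beat-Ia* and *cact* are in the same window, so that LADs of SpG that were absent in SpCs covered genes at very different RNA levels there.

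From 14.5 to 15.0 Mb (37.3% in SpCs and 64.2% in SpG), *CG4691* was at 0% in SpCs and 100% in SpG, and *Mst35Bb* at 0% at both stages. *CG34166* went the other way, at 98.8% in SpCs and 0% in SpG, with 2715 ± 557 TPM (SD, n = 3). From 9.0 to 9.5 Mb (28.4% in SpCs and 54.4% in SpG), the SpC-specific gene *CG13110* was at 100% and the fucosyltransferase gene *FucTB* at 0% at both stages, and the fat body gene *Fbp2* was at 89.7% in SpCs and 0% in SpG. *Fbp2* had 1383, 693 and 808 TPM beside the fat body RNA. A high RNA level in whole testes was thus found for genes with lower, higher or equal coverage in SpCs. Those with higher coverage in these lower windows were *Fbp2* and *CG34166*, which the study classes neither as ubiquitous nor as SpC-specific. The SpC-specific gene *CG31870*, in a higher window described below, had higher coverage in SpCs too. Which cells the RNA of *Fbp2* and *CG34166* came from was not tested.

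The 3 higher windows of the table had genes of the same kinds. From 6.5 to 7.0 Mb (49.6% in SpCs and 40.5% in SpG), *CG17376* and *CG17377*, at 4411 ± 451 and 2025 ± 205 TPM (SD, n = 3), were at 100% at both stages, and the SUMO gene *smt3* was at 0%. From 10.5 to 11 Mb (39.7% in SpCs and 33.0% in SpG), *CG31870* was at 100% in SpCs and 61.0% in SpG, *w-cup* at 100% and *Porin2*, a mitochondrial porin of the testis, at 0% at both stages. The study classes these genes as SpC-specific, and *CG31870* had 1426 ± 220 TPM (SD, n = 3). From 10.0 to 10.5 Mb (20.9% in SpCs and 14.6% in SpG), the ribosomal protein genes *RpS27A* and *RpL7* and the importin gene *Pen* were at 0% at both stages. None of these 9 genes had a lower coverage in SpCs, and all except *CG31870* had equal coverage at both stages. The windows were chosen for higher coverage in SpCs. Of all 1998 genes of the table, only 16.8% were covered by at least 10 points less, so that this count says little about the 9 genes. For SpC-specific genes that start late, the study proposes that Dam-Lam marks made in early SpCs may outlast contact with the NL. A gene at 100% in SpCs may therefore not be at the NL in the cells that hold its RNA, which was not tested.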

How the data were processed

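Each stage had 4 Lam-DamID libraries, 2 with Dam-Lam and 2 with Dam. According to the methods, uniquely placed Bowtie2 alignments on dm3/R5 were counted per 300-bp bin with HTSeq, replicates were merged, and a 2-state HMM on the log2 ratio of Dam-Lam to Dam called the LADs. The lists deposited by the authors hold the start and end of each LAD, without a score. Bins without Dam reads were not filled, so that LADs can be cut by them. For the 3 control RNA libraries, the authors deposited TPM and expected counts per gene, estimated with Salmon on BDGP5 genes. Expected counts served only to give the depth. Lam-KD libraries were not used here.

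Coverage, its change and overlaps were computed from the intervals with numpy 2.4.6, pandas 2.3.3 and scipy 1.17.1 in Python 3.11.15, and plots with matplotlib 3.10.9. On simulated lists, 0 of 243 windows differed from a base-by-base count. Distal and pericentromeric parts follow the centromere at the high end of 2L, 3L and X and at the low end of 2R, 3R and 4. Positions and classes of 1998 genes of 2L came from a gene table of the study, of which the copy used here is incomplete. Genes were placed in windows by TSS. The marker genes *nos*, *rye* and *wupA* were not matched, and *vas* was matched by its older identifier. Named windows are the 5 lowest and 5 highest and the extremes of each arm, with neighbours in runs. Named genes are a fixed list of 39 and the 3 with the highest mean control TPM in the 3 lowest and 3 highest complete 2L windows of the table. Other names and regions, such as the arm ends and runs, were chosen after their values were seen. Members and lists were chosen with earlier results of these data known. No test was made. Of 86 alternative values, 68 were planned and 18 added after seeing the data. An alternative was counted as moved when it left the 95% binomial interval, or the SD of the control libraries, of its value, or for counts when it differed by over 1.5 times. Intervals cover counting error only.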

Additional observations from a re-analysis of the deposited data

How the results depend on the processing

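No paired analysis was possible because the replicates of each stage were merged into 1 LAD list, and for the same reason no DamID replicate could be left out. Of 86 alternative values, 57 were within the limit set for the reported value, 29 were moved and 0 were reversed in sign. Counts of lower and higher windows scaled with the size of the window, with 269 and 62 of 484 windows of 250 kb and 75 and 6 of 123 windows of 1000 kb. A limit of 10 points gave 95 lower and 6 higher windows and a limit of 2.5 points 37 higher windows, and counting from the median change gave 79 and 69. The pericentromeric change was -9.96 points with LADs up to 1200 bp apart joined, -10.2 without X, -7.07 over the innermost of 5 equal parts, -10.6 without LAD-free stretches of 50 kb or more and -6.88 without 2L. The distal change was -6.62 points with LADs up to 1200 bp apart joined, -5.08 without X and -6.99 without 2L. Without 2L, the pooled change was -10.8 points in part 7 of 10 and -7.45 points in part 8. The change in the share of LAD length held by long LADs was 9.19 points when LADs up to 300 bp apart were joined and 7.78 points at 1200 bp, 7.93 points for a limit of 10 kb, 1.69 points for 40 kb and 6.54 points without X. Long LADs are thus split by gaps of 1 bin, and the cause of these gaps was not tested. The share of 2L genes at 1 TPM or more in LAD-rich windows was 71.5% without LADs shorter than 900 bp, 73.2% with either joining, 55.6% at 5 TPM and 88.4% at any TPM above 0, and it was 71.8 to 72.4% without 1 of the control libraries. The remaining values kept their direction within their limits. Depth limits these lists, and the reads in single bins were not analysed here.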
